A study of Mus musculus with 10 samples.

Results

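Mammalian spermatocytes and spermatids replace several nuclear-encoded mitochondrial proteins with isoforms made from a separate gene, and 10 genes of this kind were followed in testes of wild type and Mov10-/- mice. The list names its members and sets no threshold on their values: 6 germ-cell isoforms (Cyct, Cox6b2, Cox7b2, Cox8c, Slc25a31 and Pdha2) and 4 somatic isoforms (Cycs, Cox6b1, Cox8a and Pdha1), out of 55421 genes in the count files. MOV10 is an RNA helicase, and the study asked what its loss does in the testis at postnatal day 21, when spermatocytes are abundant and the first round spermatids appear. RNA-seq was made from 3 wild type testis pairs (libraries 1, 2 and 3) and 3 Mov10-/- testis pairs (libraries 2, 3 and 4), with 5083407 to 9230540 reads on genes in each library. 4 CLIP-seq libraries of MOV10-bound RNA (replicates 1, 2, 3 and 5) had 3404 to 4934 reads on genes. The Mov10-/- mice carried a global deletion of exons that encode the first helicase domain and were kept on a mixed 129 x C57BL/6 x FVB background, so every cell of the testis, and not the germ cells alone, lacked the intact gene. Mov10 over all its exons was measured at 113.6, 96.4 and 119.2 CPM (reads scaled to the size of the library) in wild type libraries 1, 2 and 3 and at 29.0, 26.6 and 26.7 CPM in Mov10-/- libraries 2, 3 and 4. Its log2 fold change was -2.00 (SE 0.12, adjusted p = 0.00552, edgeR quasi-likelihood test).

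The respiratory chain passes electrons through complexes I to IV, and cytochrome c is the small soluble protein that carries them from complex III to complex IV. Cycs encodes the cytochrome c of most cells and Cyct the testis form. Complex IV (cytochrome c oxidase) has nuclear-encoded subunits with tissue isoforms: Cox6b2, Cox7b2 and Cox8c are the testis forms of COX6B, COX7B and COX8, and Cox6b1, Cox7b and Cox8a the forms of most other tissues. The pyruvate dehydrogenase complex feeds the citric acid cycle, and its E1 alpha subunit is encoded by Pdha1 on the X chromosome and by the intronless autosomal gene Pdha2 in spermatogenic cells, where the X chromosome is silenced during meiosis. Slc25a31 encodes the ADP/ATP carrier of germ cells, and Slc25a4 and Slc25a5, the second of them X-linked, encode the carriers of other tissues. Cox7b, Slc25a4 and Slc25a5 were added here as counterparts, since the list of somatic isoforms held none for Cox7b2 and Slc25a31.

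All coordinates are those of the mouse genome build mm10 (GRCm38). Cyct lies at chr2:76353942-76360450, Cox6b2 at chr7:4751792-4753094, Cox7b2 at chr5:71442824-71548205, Cox8c at chr12:102899316-102900526, Slc25a31 at chr3:40708855-40726096 and Pdha2 at chr3:141210004-141212355. Their somatic counterparts lie on chromosomes 6 (Cycs), 7 (Cox6b1), 19 (Cox8a) and X (Pdha1). Mov10 is on chromosome 3 as well, 36.4 Mb from Pdha2 and 64.1 Mb from Slc25a31. The coding sequences of Cyct and Cycs were 76.9% identical and those of Pdha2 and Pdha1 75.8%. Identity was lower for Cox7b2 and Cox7b (64.8%), Cox6b2 and Cox6b1 (52.1%) and Cox8c and Cox8a (51.8%), and Slc25a31 was 61.9% identical to Slc25a4. No stretch of 50 bases in any transcript of the 6 germ-cell isoforms was shared with another annotated gene, so reads of a germ-cell isoform were not shared with its counterpart at that length. Of the 50-base stretches of Cycs, 26.1% occurred in 76 other genes, 847 of them in Gm10053, and reads that map to several places were left uncounted by the authors. For Pdha1 the share was 12.9%, nearly all of it with Map3k15, whose exons overlap those of Pdha1 on the opposite strand. The overlap was 603 bases when summed over pairs of annotated exons, which can count a base more than once. The levels of Cycs and Pdha1 are uncertain for this reason, and for Pdha1 also since the strand setting of the counting is not given in the sources used here.

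The promoters of the pairs most alike in coding sequence are printed to show how their start regions differ, from 250 bases before to 50 bases after the start site (RefSeq, GRCm38.p6, 5′ to 3′ on the strand of the gene). Capitals mark matches on either strand to 4 motifs that were chosen after the windows were seen: the cAMP response element TGACGTCA, the core of the site of nuclear respiratory factor 1 GCATGCGC, the TATA box TATAAA and the CCAAT box. A match says only that these letters are in the window. The windows are Pdha2 at chr3:141212306-141212605, Pdha1 at chrX:160138381-160138680, Cyct at chr2:76360404-76360703 and Cycs at chr6:50566520-50566819, each on the minus strand.
Pdha2: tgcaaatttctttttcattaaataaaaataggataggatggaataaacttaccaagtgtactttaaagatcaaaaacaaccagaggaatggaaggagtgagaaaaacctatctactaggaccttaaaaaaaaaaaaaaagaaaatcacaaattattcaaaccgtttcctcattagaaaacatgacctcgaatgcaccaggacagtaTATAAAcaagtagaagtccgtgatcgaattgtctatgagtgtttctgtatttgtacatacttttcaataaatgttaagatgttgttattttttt
Pdha1: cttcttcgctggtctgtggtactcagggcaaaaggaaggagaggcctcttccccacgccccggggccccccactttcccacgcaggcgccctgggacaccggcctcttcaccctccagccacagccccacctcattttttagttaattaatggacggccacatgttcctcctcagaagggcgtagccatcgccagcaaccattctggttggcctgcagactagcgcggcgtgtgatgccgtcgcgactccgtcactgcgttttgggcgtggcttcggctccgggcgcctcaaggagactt
Cyct: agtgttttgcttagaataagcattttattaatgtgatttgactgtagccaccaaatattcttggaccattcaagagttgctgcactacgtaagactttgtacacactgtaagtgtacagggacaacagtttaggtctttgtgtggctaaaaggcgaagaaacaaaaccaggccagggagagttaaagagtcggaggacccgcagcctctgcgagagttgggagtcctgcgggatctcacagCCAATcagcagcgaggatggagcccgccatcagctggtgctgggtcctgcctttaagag
Cycs: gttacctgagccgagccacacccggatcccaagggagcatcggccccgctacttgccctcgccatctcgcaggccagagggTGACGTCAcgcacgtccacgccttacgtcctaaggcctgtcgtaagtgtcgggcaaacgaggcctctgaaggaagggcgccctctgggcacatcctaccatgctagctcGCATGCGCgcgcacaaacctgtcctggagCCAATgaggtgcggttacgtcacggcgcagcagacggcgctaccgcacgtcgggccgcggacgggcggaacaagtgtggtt
The Pdha2 window held 4 CpG dinucleotides and 29.7% G and C, against 21 CpG and 62% in the Pdha1 window. Cyct had 8 CpG and Cycs 32. Over the 5 germ-cell isoforms with a window, the CpG count ran from 4 (Pdha2) to 22 (Slc25a31) with a median of 10, over the 4 somatic isoforms from 17 to 32 with a median of 20, and over all 32851 windows the median was 7. The ranges of the classes overlapped only through Slc25a31, but the added counterparts are outside these classes. Among them, Cox7b had 5 CpG and 43.3% G and C, fewer than Cox7b2 with 10 CpG and 48.7%. Slc25a4 had 25 CpG and Slc25a5 had 18. Of the 9 windows, the cAMP response element was found in that of Cycs alone and is present in 1.79% of all windows. The respiratory factor core was found in Cycs and Slc25a31 (2.71% of all windows), and the TATA box in Pdha2 and Cox7b2 (13.6% of all windows). CCAAT was found in Cyct, Cox6b2, Cox7b2, Cycs, Cox6b1 and Cox8a, and in 37.4% of all windows.

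Slc25a31 could not be assessed. It had 1 read in wild type library 1 and 0 in the other 5 libraries, which allows up to 0.325 to 0.590 CPM in the libraries at 0. Its neighbours were also nearly empty: 7 adjacent protein-coding genes, from Intu to 1700034I23Rik (chr3:40531286-40938138), had 87 reads in all over 6 libraries, with 0 to 26 reads each. Among them were Plk4, the kinase of centriole duplication, with 26 reads, and Hspa4l, a chaperone of the HSP110 family known from spermatogenic cells, with 26. The genes on either side were measured well, with 787 reads on Fat4 and 6468 on Larp1b. The absence of reads in wild type and Mov10-/- libraries alike thus covers a block of the chromosome, and the level of Slc25a31 was not read from it. Some genes that most cells use were likewise nearly empty: Uqcrc1, a core subunit of complex III, had 0 to 3 reads in a library, Ndufs3 of complex I 0 to 1 and Atp5a1 of ATP synthase 0 to 4, genes that were picked out after their values were seen. Why these genes have so few reads was not tested.

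**Figure D1:**
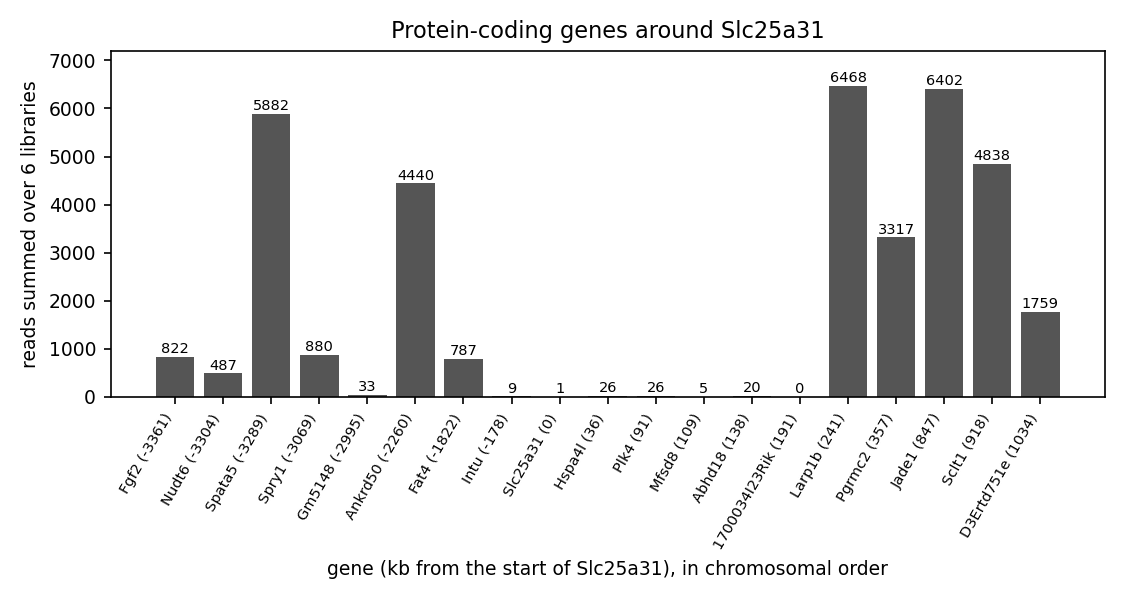
Reads summed over the 6 RNA-seq libraries (vertical axis) for the protein-coding genes around Slc25a31, in chromosomal order, with the distance of each gene start from that of Slc25a31 in kb in parentheses. The 7 genes from Intu to 1700034I23Rik had 0 to 26 reads each, between Fat4 with 787 and Larp1b with 6468.

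The other 9 genes all passed the filter of more than 1 CPM in at least 3 of the 6 libraries. To compare genes with each other, CPM was divided by the length of all annotated exons of the gene in kb. On this scale the means of the 5 germ-cell isoforms stood above those of the 4 somatic ones in each genotype. Cox8c was the highest in wild type testes at 82.5 ± 9.08 CPM per kb (SD, n = 3), followed by Cox7b2 at 68.5 ± 4.37, Cox6b2 at 60.8 ± 7.97, Cyct at 51.7 ± 2.83 and Pdha2 at 42.4 ± 4.63. Below them came Cox6b1 at 36.4 ± 1.80, Cox8a at 27.0 ± 3.22, Pdha1 at 11.3 ± 2.11 and Cycs at 6.90 ± 1.32. The ranges of the 3 wild type libraries overlapped between Cox7b2 and Cox6b2, while those of Cox8c and Cox7b2, of Cox6b2 and Cyct, of Cyct and Pdha2, of Pdha2 and Cox6b1, of Cox6b1 and Cox8a, of Cox8a and Pdha1 and of Pdha1 and Cycs did not overlap. In Mov10-/- testes the order was Cox8c at 84.9 ± 15.9 CPM per kb, Cox7b2 at 61.8 ± 9.21, Cox6b2 at 57.7 ± 12.6, Cyct at 47.7 ± 7.53, Pdha2 at 41.7 ± 8.56, Cox6b1 at 41.5 ± 5.16, Cox8a at 34.5 ± 3.86, Pdha1 at 13.5 ± 3.07 and Cycs at 8.23 ± 0.757. There the ranges of genes next to each other in this order overlapped from Cox8c down to Cox8a. Pdha2, for example, had 33.7 to 50.7 CPM per kb and Cox6b1 37.8 to 47.4. Only the ranges of Cox8a and Pdha1 and of Pdha1 and Cycs did not overlap. In Mov10-/- library 2, Cox6b1 at 39.2 and Cox8a at 35.1 lay above Pdha2 at 33.7 CPM per kb. The exon lengths include every annotated exon, so long exons place a gene low on this scale if they are rarely used. Cycs has 3404 bases against 655 for Cyct, and how far its exons are used was not measured.

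**Figure D2:**
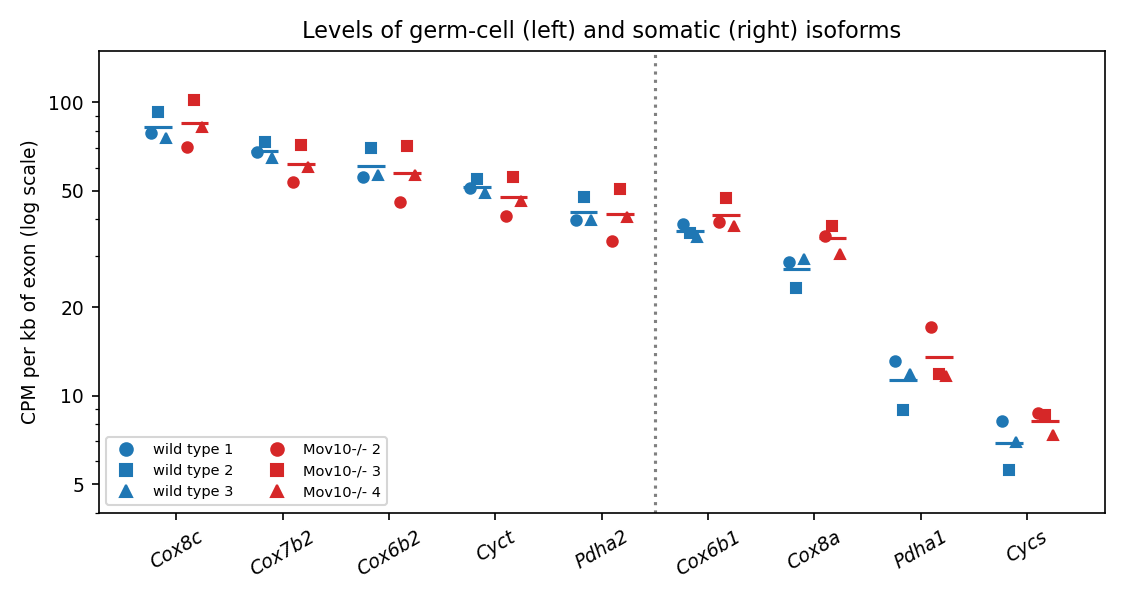
CPM per kb of annotated exon (log scale) for 9 isoforms in 3 wild type (blue) and 3 Mov10-/- (red) libraries, with symbols for the libraries and a line at the mean of each genotype. The germ-cell isoforms left of the dotted line have wild type means of 42.4 to 82.5 CPM per kb and the somatic isoforms right of it 6.90 to 36.4.

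The counts had an upper bound that bears on these levels. Of 46347 genes with at least 300 bases of exon, 0 to 2 in each library had more than 1 read per base of exon, and the mitochondrial transcript mt-Co1 stood at 0.507 to 0.628 reads per base. Cox8c, at 0.498 to 0.710 reads per base, and Cox7b2, at 0.351 to 0.603, were at percentiles 99.9 and 99.6 among 20021 tested genes with a length. Cox6b2 was at percentile 99.3, Cyct at 98.3 and Pdha2 at 96.7, against 95.8 for Cox6b1, 91.9 for Cox8a, 64.1 for Pdha1 and 48.5 for Cycs. The germ-cell isoforms thus sat nearer to this bound than their counterparts. The values nearest to the bound differed in Mov10-/- library 3, the shallowest and the one with the largest share of reads not aligned (57.2%). There the median log2 ratio of CPM to the mean of Mov10-/- libraries 2 and 4 was -0.10 over 8908 genes with up to 0.05 reads per base, 0.045 over 8722 genes from 0.05 to 0.2, 0.26 over 2119 genes from 0.2 to 0.4, and 0.46 over 272 genes above 0.4, which include Cox8c, Cox7b2 and Cox6b2. Depth, alignment and makeup of that library cannot be told apart here. Whether reads at the same position were merged before counting is not given in the sources used here. The fold changes and ratios of the isoforms were therefore repeated with counts corrected for a limit of 1 read per base, an alternative added after seeing the data. Levels, marker sums, list values and correlations used uncorrected counts.

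**Figure D3:**
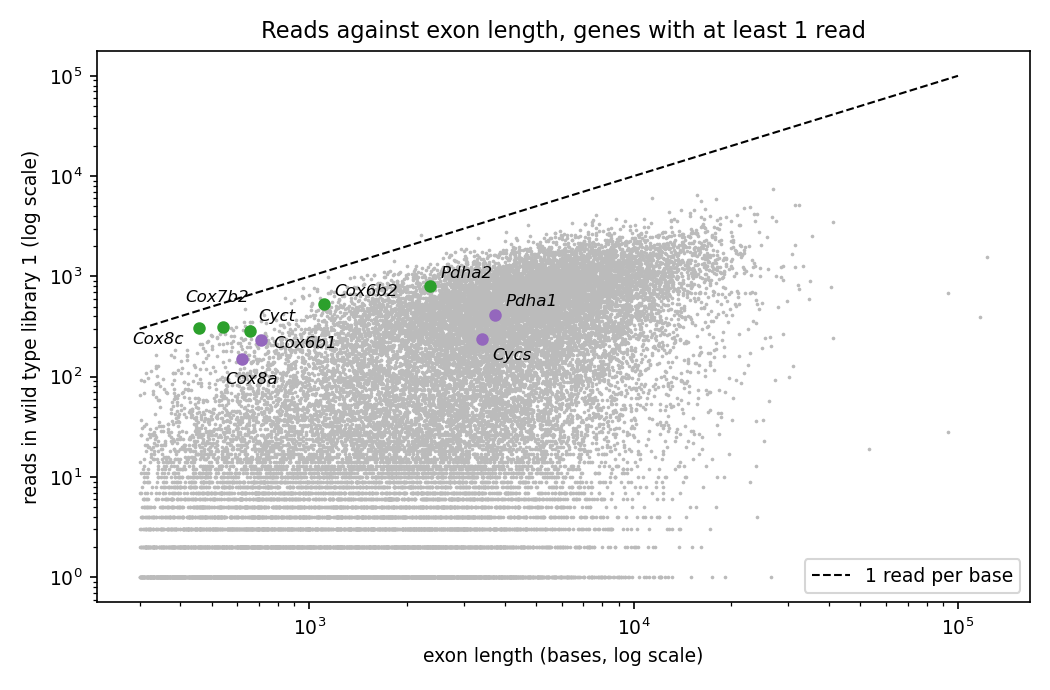
Reads in wild type library 1 (vertical axis, log scale) against exon length in bases (log scale) for genes with at least 1 read (grey), with germ-cell isoforms in green, somatic isoforms in purple and a dashed line at 1 read per base. Cox8c and Cox7b2 lie just under the line, and Cycs and Pdha1 lie well below it.

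The next comparison asked whether loss of MOV10 changed the level of any of these genes. None of the 9 tested isoforms was called (adjusted p under 0.05 and more than 2-fold, edgeR quasi-likelihood test), where 1 of 20240 genes (0.00494%) was called, Mov10 itself. DESeq2 called 1039 genes (5.13% of those tested), none of them an isoform, and no isoform had an unadjusted p under 0.05, as 17.5% of all genes did. The 5 germ-cell isoforms had log2 fold changes from -0.15 to 0.039 with a median of -0.080, and the 4 somatic isoforms from 0.18 to 0.35 with a median of 0.26, beside a median of 0.032 over all genes. No fold change of an isoform reached 2-fold at either end of its 95% interval.

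Cyct, the testis cytochrome c, was measured at 33.5, 35.9 and 32.2 CPM in wild type libraries 1, 2 and 3 and at 26.9, 36.6 and 30.2 CPM in Mov10-/- libraries 2, 3 and 4. The groups overlapped, with Mov10-/- library 3 the highest of all 6 and Mov10-/- library 2 the lowest. Its log2 fold change was -0.12 (SE 0.17, 95% interval -0.51 to 0.28, edgeR adjusted p = 0.745). Cycs, its somatic counterpart, had 27.9, 18.9 and 23.6 CPM in wild type and 29.8, 29.3 and 25.1 CPM in Mov10-/- testes. Here wild type library 2 was the lowest of the 6, and a single wild type library, the first, lay above Mov10-/- library 4. The log2 fold change of Cycs was 0.25 (SE 0.20, -0.22 to 0.72, edgeR adjusted p = 0.553).

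Among the complex IV subunits, Cox6b2 had 61.9, 77.6 and 62.7 CPM in wild type and 50.6, 78.6 and 62.5 CPM in Mov10-/- testes. The 2 highest values, from wild type library 2 and Mov10-/- library 3, came from different genotypes. Its log2 fold change was -0.080 (SE 0.18, -0.49 to 0.33, edgeR adjusted p = 0.839). Cox7b2 had 36.8, 39.7 and 35.0 CPM in wild type and 29.0, 38.9 and 32.6 CPM in Mov10-/- testes. Again Mov10-/- library 2 was the lowest, while Mov10-/- library 3 lay inside the wild type range. The log2 fold change of Cox7b2, the lowest among the isoforms, was -0.15 (SE 0.16, -0.53 to 0.23, edgeR adjusted p = 0.657). Cox8c had 36.1, 42.5 and 34.7 CPM in wild type and 32.2, 46.6 and 37.8 CPM in Mov10-/- testes, and the Mov10-/- libraries held both the highest and the lowest value. Its log2 fold change of 0.039 (SE 0.18, -0.38 to 0.45, edgeR adjusted p = 0.923) became -0.12 with counts corrected for reads per base.

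The somatic subunits had higher means in Mov10-/- testes, within their intervals. Cox6b1 had 27.2, 25.5 and 24.7 CPM in wild type and 27.8, 33.6 and 26.8 CPM in Mov10-/- testes, where wild type library 1 lay above Mov10-/- library 4. The log2 fold change was 0.18 (SE 0.17, -0.21 to 0.58, edgeR adjusted p = 0.604). Cox8a had 17.7, 14.4 and 18.1 CPM in wild type and 21.7, 23.5 and 18.8 CPM in Mov10-/- testes. It was the only isoform of the 9 whose groups did not overlap, where 26% of all genes tested did not and 11.9% were higher in Mov10-/- testes without overlap. Its log2 fold change was 0.35 (SE 0.21, -0.13 to 0.83, edgeR adjusted p = 0.430). Cox7b, the counterpart of Cox7b2, had 17.3, 13.5 and 15.0 CPM in wild type and 19.8, 19.2 and 16.1 CPM in Mov10-/- testes, with a log2 fold change of 0.26 (SE 0.22, edgeR adjusted p = 0.562).

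Pdha2, the most abundant isoform by CPM, had 93.5, 112.2 and 93.1 CPM in wild type and 79.3, 119.3 and 95.3 CPM in Mov10-/- testes. Its highest and lowest values both came from Mov10-/- testes, and the log2 fold change was -0.028 (SE 0.16, -0.40 to 0.34, edgeR adjusted p = 0.939). X-linked Pdha1 had 48.9, 33.5 and 44.2 CPM in wild type and 63.8, 44.2 and 43.7 CPM in Mov10-/- testes, so that 1 Mov10-/- library stood above the rest and the others lay within the wild type range. Its log2 fold change was 0.26 (SE 0.21, -0.22 to 0.74, edgeR adjusted p = 0.545). The carriers Slc25a4 and Slc25a5 are the counterparts of the unread Slc25a31 in other tissues. Slc25a4 had 64.5, 52.6 and 61.2 CPM in wild type and 74.8, 70.6 and 64.6 CPM in Mov10-/- testes. Slc25a5 had 63.4, 54.8 and 57.8 against 69.8, 70.8 and 59.1 CPM. The groups did not overlap for Slc25a4, where wild type library 1 and Mov10-/- library 4 lay side by side, and overlapped for Slc25a5. Their log2 fold changes were 0.24 (SE 0.12, edgeR adjusted p = 0.361) and 0.18 (SE 0.12, edgeR adjusted p = 0.483), and 33.8% of the 50-base stretches of Slc25a5 occurred in other genes.

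**Figure D4:**
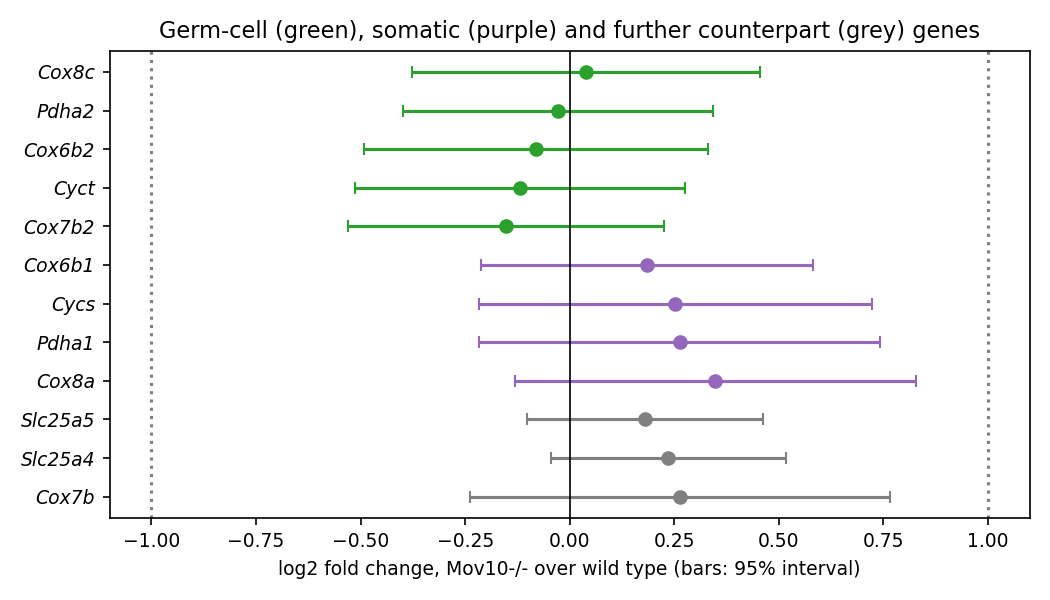
Fitted log2 fold change of Mov10-/- over wild type testes (horizontal axis) with its 95% interval for germ-cell isoforms (green), somatic isoforms (purple) and further counterparts (grey), with dotted lines at 2-fold. The germ-cell isoforms lie between -0.15 and 0.039 and the somatic isoforms between 0.18 and 0.35, and every interval includes 0.

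A ratio of reads per exonic base within 1 library does not depend on how libraries are scaled, and it was used to set each germ-cell isoform against its counterpart. The germ-cell isoform was higher in 6 of 6 libraries for all 5 pairs. Cyct exceeded Cycs 6.24, 9.82 and 7.07-fold in wild type libraries 1, 2 and 3 and 4.70, 6.50 and 6.26-fold in Mov10-/- libraries 2, 3 and 4. This ratio rests largely on the exon lengths of 655 bases for Cyct and 3404 for Cycs. Before division by length, Cyct had 286 reads and Cycs 238 in wild type library 1. In Mov10-/- library 2 the order was the reverse, with 218 and 241 reads. Reads of Cycs may also be missing, since 26.1% of its 50-base stretches occurred in other genes. Cox7b2 exceeded Cox7b 4.74, 6.56 and 5.22-fold and 3.29, 4.52 and 4.52-fold, and Pdha2 exceeded Pdha1 3.04, 5.30 and 3.35-fold and 1.97, 4.28 and 3.46-fold. The margin was smaller for Cox8c over Cox8a, at 2.75, 3.97 and 2.60-fold and 2.002, 2.67 and 2.72-fold, and smallest for Cox6b2 over Cox6b1, at 1.45, 1.94 and 1.62-fold and 1.16, 1.49 and 1.49-fold. In each pair wild type library 2 had the highest ratio of all 6 libraries and Mov10-/- library 2 the lowest.

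The mean log2 ratio was lower in Mov10-/- testes for all 5 pairs. The difference was -0.43 for Cox7b2 over Cox7b (exact two-sided permutation test, p = 0.1), -0.39 for Cyct over Cycs (exact p = 0.3), -0.32 for Cox8c over Cox8a (exact p = 0.4), -0.30 for Pdha2 over Pdha1 (exact p = 0.6) and -0.27 for Cox6b2 over Cox6b1 (exact p = 0.3). With 3 libraries against 3 the smallest p is 0.1, so no pair could pass 0.05. Cox7b2 over Cox7b was the only pair whose groups did not overlap, with log2 ratios of 2.25 to 2.71 in wild type and 1.72 to 2.18 in Mov10-/- testes. The sizes rested on the libraries at either end: without wild type library 2 the differences were -0.29 (Cox7b2), -0.21 (Cyct), -0.13 (Cox8c), -0.050 (Pdha2) and -0.16 (Cox6b2), and without Mov10-/- library 2 they were -0.27, -0.25, -0.18, 0.026 and -0.15, so that the direction for Pdha2 was lost. With counts corrected for reads per base the differences were -0.61 (Cox7b2), -0.50 (Cyct), -0.50 (Cox8c), -0.36 (Pdha2) and -0.39 (Cox6b2), and the groups no longer overlapped for Cyct over Cycs (exact p = 0.1).

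**Figure D5:**
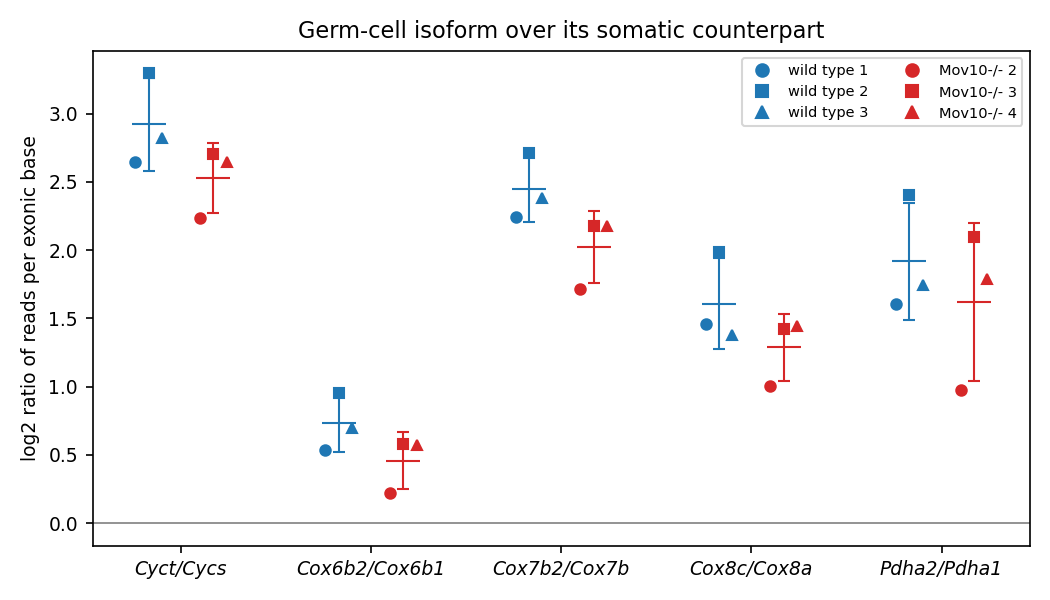
Log2 ratio of reads per exonic base of a germ-cell isoform over its somatic counterpart (vertical axis) in 3 wild type (blue) and 3 Mov10-/- (red) libraries, with the mean and SD of each genotype and a line at 0. All points lie above 0, and the Mov10-/- mean minus the wild type mean runs from -0.43 to -0.27 over the pairs.

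Bulk testis RNA cannot tell fewer cells of a type from less RNA per cell, and the makeup of the libraries differed. The summed level of the 18 listed spermatid markers was 500.6, 1297 and 315.2 CPM in wild type libraries 1, 2 and 3 and 80.3, 281.7 and 120.3 CPM in Mov10-/- libraries 2, 3 and 4, and 9 of the 17 tested were lower in Mov10-/- testes without overlap, where 14.1% of all genes were. DESeq2 called 12 of the 17 lower, where it called 5.13% of all genes in either direction, while the edgeR quasi-likelihood test called none. The libraries with the highest sum of each genotype, wild type 2 and Mov10-/- 3, were those with the highest level of all 5 measured germ-cell isoforms in that genotype. Mov10-/- library 2 had the lowest spermatid sum and the lowest value of all 5 germ-cell isoforms. The 15 spermatocyte markers summed to 1834, 1907 and 1820 CPM in wild type and 1713, 2128 and 1898 CPM in Mov10-/- testes, with the same library at each end of the Mov10-/- range. The 10 listed Sertoli markers summed to 807.3, 707.2 and 815.5 CPM in wild type and 979.2, 1016 and 872.4 CPM in Mov10-/- testes, and those of peritubular and endothelial cells (8 listed) to 478.6, 423.0 and 482.3 against 632.7, 582.9 and 528.8 CPM. Both sums were lowest in wild type library 2, where Cycs, Cox8a and Pdha1 were lowest too. Akap4, a protein of the sperm fibrous sheath, stood at 106.3 ± 75.2 CPM in wild type and 19.5 ± 12.1 CPM in Mov10-/- testes, and Wt1, a transcription factor of Sertoli cells, at 95.7 ± 15.3 and 123.9 ± 7.78 CPM (SD, n = 3). Without overlap, 3 of 9 Sertoli and 5 of 8 peritubular and endothelial markers were higher in Mov10-/- testes, as were 1 of 10 spermatogonial, 0 of 6 Leydig and 0 of 6 macrophage markers, where 11.9% of all genes were. Median log2 fold changes were -2.22 for spermatid, 0.045 for spermatocyte, 0.15 for spermatogonial, 0.31 for Sertoli, 0.21 for Leydig, 0.30 for peritubular and endothelial and 0.32 for macrophage markers. Outside the spermatid list, no marker was called by the edgeR quasi-likelihood test or by DESeq2. The Sertoli marker Rhox5 had 1 read in all, every other marker was above that, and the part of the makeup in the ratios was not tested.

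The 5 germ-cell isoforms varied together across the 6 libraries, with Pearson correlations of log2 CPM from 0.80 to 0.99 over the 10 pairs. The 6 pairs of somatic isoforms had 0.22 to 0.89, and the 20 pairs of a germ-cell with a somatic isoform -0.85 to 0.56. All libraries were scaled together and differed in depth, so these values are a description of 6 points. Of 12314 protein-coding genes above 10 CPM, those most like the mean profile of the 5 germ-cell isoforms were Atp6v1d (a subunit of the vacuolar ATPase), Rabepk, Aprt (adenine phosphoribosyltransferase), Rsph6a (a radial spoke head protein of the flagellum) and Kctd19 (a regulator of meiosis in spermatocytes), with correlations of 0.997 to 0.999 over 6 libraries. Rsph6a had 125.3, 163.0 and 124.6 CPM in wild type and 87.2, 175.7 and 118.4 CPM in Mov10-/- testes, the same order of libraries as for Cyct.

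Further subunits of the respiratory chain and ATP synthase were set beside the isoforms. The list of 9 common complex IV subunits includes Cox7b, the counterpart of Cox7b2. Of these 9, 0 were called, 2 (Cox6a1 and Cox6c) were higher in Mov10-/- testes without overlap, and the median log2 fold change was 0.17. Cox4i1, the largest nuclear-encoded subunit, had 61.9 ± 6.12 CPM in wild type and 70.0 ± 16.8 CPM in Mov10-/- testes (SD, n = 3), a log2 fold change of 0.17 (SE 0.18). Cox6c stood at 43.6 ± 1.45 and 50.4 ± 2.95 CPM, and Cox7a2 at 36.8 ± 5.72 and 35.4 ± 7.26 CPM. Of the muscle and lung isoforms of complex IV, Cox7a1 had 7.53 ± 0.777 and 9.03 ± 1.31 CPM and Cox4i2 1.67 ± 0.225 and 2.34 ± 0.448 CPM, and Cox6a2 did not pass the filter. Complex IV assembly factors (18 tested) had a median of 0.079, complex III with cytochrome c haem lyase (9 tested) 0.041, complex I (35 tested) 0.086, complex II (4 tested) 0.10 and ATP synthase (14 tested) 0.11. Over all genes of the respiratory chain and ATP synthase lists, 11 of 91 tested (12.1%) were higher in Mov10-/- testes without overlap, near the 11.9% of all genes. Lower without overlap were 0 of the 91, where 14.1% of all genes were. Log2 fold changes above 0 were found for 70 of these 91 genes and for 53.8% of all genes.

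The partners of Pdha1 and Pdha2 were set beside them. Of 11 pyruvate dehydrogenase partners and regulators, 0 were called by either tool, 1 was higher and 1 lower without overlap, near the 11.9% and 14.1% of all genes, and the median was -0.058. Log2 fold changes below 0 were found for 8 of the 11 and for 46.2% of all genes. Dlat, the E2 subunit, stood at 124.7 ± 8.88 CPM in wild type and 122.1 ± 11.6 CPM in Mov10-/- testes, Pdpr, the regulatory subunit of the phosphatase, at 106.2 ± 14.4 and 126.3 ± 11.2 CPM, and the kinase Pdk2 at 118.5 ± 22.7 and 97.4 ± 22.6 CPM (SD, n = 3). For the 12 genes of the citric acid cycle the median was 0.082, with Ogdh, a subunit of the 2-oxoglutarate dehydrogenase complex, at 196.2 ± 7.56 and 203.5 ± 14.9 CPM.

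Genes of the sperm mitochondrion and its sheath had a wider spread than the isoforms. Of 9 tested, 0 were called by the edgeR quasi-likelihood test and 2 (Smcp and Spata19) by DESeq2, which called 5.13% of all genes. Without overlap, 3 of the 9 (Spata19, Gykl1 and Spata18) were lower in Mov10-/- testes, where 14.1% of all genes were. The median log2 fold change was -0.28. Smcp, a protein of the sperm mitochondrial capsule that is transcribed in spermatids, stood at 49.3 ± 23.5 CPM in wild type and 16.8 ± 12.6 CPM in Mov10-/- testes, a log2 fold change of -1.58 (SE 0.54, edgeR adjusted p = 0.203). Spata19, a mitochondrial protein of spermatids, stood at 29.6 ± 17.7 and 6.77 ± 4.64 CPM (-2.16, SE 0.59, edgeR adjusted p = 0.156) and Spata18 at 44.8 ± 36.1 and 15.7 ± 5.12 CPM (-1.52, SE 0.54, edgeR adjusted p = 0.215). The glycerol kinases Gk2 and Gykl1 had log2 fold changes of -0.28 (SE 0.16) and -0.47 (SE 0.18). Tomm20l (-0.029, SE 0.46), Vdac2 (0.076, SE 0.12), Vdac3 (0.031, SE 0.11) and Gpx4 (0.047, SE 0.24) had estimates close to 0, as the germ-cell isoforms did. The estimate for Tomm20l was the least certain of these 4. Oxct2a and Oxct2b did not pass the filter: Oxct2a had 169 reads in wild type library 2, against 0 to 10 in each other library, and Oxct2b 173 against 1 to 6, and wild type library 2 was the library with the highest spermatid sum.

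In the CLIP-seq libraries, no read was counted on any of the 10 isoforms in any of 4 libraries. In the deposited counts, 99.48 to 99.57% of the reads of a CLIP-seq library were not aligned. With 3404 to 4934 reads on genes per library, a count of 0 allows up to 608.0 to 881.3 CPM, far above the RNA-seq level of every isoform. Binding of these transcripts by MOV10 was thus not detectable in the deposited counts, with so few reads on genes. The study reported transcripts bound by MOV10 from its own processing of the CLIP reads, which was not used here.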

How the data were processed

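RNA-seq libraries were made with a stranded poly(A) kit from P21 testis pairs. The authors aligned reads to mm10 with STAR and deposited raw counts per Ensembl gene from HTSeq; the strand setting and any removal of duplicate reads are not given in the sources used here. Reads outside genes, ambiguous, not unique or not aligned made up 52.8 to 71.7% of an RNA-seq library and over 99.9% of a CLIP-seq library, and stayed out of library sizes. Exon lengths and symbols came from GENCODE M21 (55240 of 55421 genes matched), which is not the annotation the authors used.

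Counts were scaled by TMM, genes above 1 CPM in at least 3 of 6 libraries were kept, and edgeR 4.0.16 quasi-likelihood tests with Benjamini-Hochberg adjustment were run over all of them in R 4.3.3. Ratios used reads plus 0.5 per exonic base, compared by exact permutation over libraries. Alternatives were DESeq2 1.42.0, the edgeR exact and likelihood ratio tests, limma voom 3.58.1, other scalings, no filter, a replicate block and leaving out each library; the likelihood ratio test and the correction -L ln(1 - c/L) for c reads on L bases were added after seeing the data. Members and lists were chosen with earlier results of these data known. Named genes were the isoforms, their counterparts, Mov10, up to 3 of the most abundant genes of each list, the 5 closest profiles and the tested genes of the sperm mitochondria list. Separate testis pairs made each library, so p-values and the 95% intervals of fold changes include the spread between mice; floors of 3 counts cover counting error only.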

Additional observations from a re-analysis of the deposited data

How the results depend on the processing

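No isoform was called under any alternative: not by DESeq2, the edgeR exact or likelihood ratio test, limma voom, other scalings, no filter on low counts, a replicate block, counts corrected for reads per base, or with any library left out. Over left-out libraries the log2 fold change ran from -0.25 to 0.059 for Cox6b2, from -0.19 to 0.10 for Pdha2 and from -0.11 to 0.15 for Cox8c. Of 135 isoform fold changes under these alternatives, 127 kept their sign. The 8 that turned were those of Cox6b2 (0.059 without Mov10-/- library 2, 0.034 without wild type library 2), Pdha2 (0.10 and 0.068 without the same libraries) and Cox8c (-0.11 without Mov10-/- library 3, -0.011 and -0.030 without wild type libraries 1 and 3, and -0.12 with counts corrected for reads per base). The difference in log2 ratio ranged over left-out libraries from -0.53 to -0.21 (Cyct), -0.37 to -0.15 (Cox6b2), -0.53 to -0.27 (Cox7b2), -0.44 to -0.13 (Cox8c) and -0.53 to 0.026 (Pdha2), and a pseudocount of 0 or 5 reads turned none of them.

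The number of genes called was 1 by the edgeR quasi-likelihood test, 1039 by DESeq2, 1101 by the exact test, 1187 by the likelihood ratio test, 2 by limma voom, 6 with total reads as library size, 10 with no filter and 0 to 1 with a library left out. Mov10 was not past the threshold without Mov10-/- library 3 (log2 fold change -1.98, edgeR adjusted p = 0.106) or library 4 (-1.98, adjusted p = 0.143), and ranged from -2.08 to -1.95 over left-out libraries. The causes were not tested.

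Replicates 2 and 3 occur in both genotypes, and their deviations from the group means correlated at -0.47 and -0.35 over 20240 genes. Each value compares single libraries that differed in makeup. Whether libraries with the same number share a litter or a batch cannot be told from these values. With a replicate block 181 genes were called, and the median log2 fold change was 0.47 for the somatic and -0.11 for the germ-cell isoforms. In that fit wild type library 1 and Mov10-/- library 4 have no partner of the same number. Its genotype effect therefore rests on libraries 2 and 3 of each genotype alone. With a library left out and no block, the median log2 fold change ranged from -0.24 to 0.059 for the germ-cell and from 0.16 to 0.37 for the somatic isoforms. Cox8c, Cox7b2 and Cox6b2 lie nearest to the bound of 1 read per base, and beyond the corrected counts its part in their fold changes was not tested.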
